A study of Homo sapiens with 4 samples.

Results

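The S100 calcium-binding proteins were followed as 10 named genes, S100A2, S100A3, S100A4, S100A6, S100A10, S100A11, S100A13, S100A14, S100A16 and S100P, out of 55764 gene names with an expression value. They were taken by gene symbol from the deposited expression table, and all 10 were listed. The list of symbols was chosen with earlier results of these data known. The cells were TE5, an established line from a human esophageal squamous cell carcinoma. In the ETS1 group (2 libraries) the cells stably carried a lentiviral vector that encodes human ETS1, a transcription factor, under a CMV promoter. In the control group (2 libraries) they carried the empty backbone, and the labels give their genotype as WT. The cells of both groups were infected and selected. The labels do not say whether the libraries of a group came from separate infections or cultures, so p-values measure only the spread between these libraries, which may be technical. Nor do they say whether the lines are clones.

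S100 proteins are small proteins with a pair of EF-hand motifs, the helix-loop-helix fold that binds calcium. Most act as dimers that change shape on binding calcium and then grip a partner protein, such as an annexin, a cytoskeletal protein or p53, and several are released from cells and can act on receptors such as RAGE (the product of AGER). Most of the genes stand together on chromosome 1 in and beside the epidermal differentiation complex, which also holds the genes of the cornified layer of squamous epithelium, and several family members are used as markers of squamous tissue.

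Depth recovered from the table, rounded, was 40400000 and 44200000 reads in the control libraries and 57400000 and 56600000 reads in the ETS1 libraries, so the ETS1 libraries were deeper. ETS1 itself had 0.491 and 0.509 FPKM (fragments per gene, corrected for gene length and library depth) in the controls and 1.84 and 1.87 FPKM in the ETS1 libraries, so the libraries matched their labels. Of 7 squamous and epithelial markers, KRT5, KRT14 and TP63, which define basal squamous cells, were listed at 0 in both controls and had group means of at most 0.0103 FPKM in the ETS1 libraries. The summed level of the 7 markers ran from 16.1 to 16.3 FPKM in the controls and from 16.8 to 16.9 FPKM in the ETS1 libraries, most of it from the simple-epithelial keratins KRT8 and KRT18, which changed in opposite directions. KRT8 rose from 3.89 to 6.53 FPKM (log2 0.62, limma adjusted p 0.000591) and KRT18 fell from 10.4 to 8.32 FPKM (log2 -0.29, limma adjusted p 0.00223). EPCAM had means of 1.36 and 1.02 FPKM (log2 -0.23, limma adjusted p 0.0525, not called), and CDH1, under the filter, 0.569 and 0.998 FPKM. The leukocyte markers summed to at most 0.0926 FPKM in each library. Fibroblast markers, mostly COL1A1, summed to between 2.11 and 2.23 FPKM in the controls and between 3.02 and 3.08 FPKM in the ETS1 libraries, and COL1A2 was listed at 0 in both controls. The part of these differences in the S100 values was not tested. In bulk RNA, fewer cells of a type and less RNA per cell cannot be told apart.

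Of the members, 9 lie on chromosome 1 within 1.65 Mb and S100P lies on chromosome 4 (positions from GENCODE 29 on GRCh38, as matched by name). S100A10 and S100A11 are neighbours 38.1 kb apart. After a gap of 1.49 Mb, the other 7 members on the chromosome stand within 96.8 kb, from S100A6 to S100A13. That gap, within the epidermal differentiation complex, holds 53 protein-coding genes, of which 51 were listed. None of the 51 reached a mean of 1 FPKM over the 4 libraries, and 32 were listed at 0 in every library, among them the cornified-envelope genes LOR, SPRR1B and SPRR3. The highest was TCHH, at a mean of 0.235 FPKM. The 3 members with a mean of at least 1 FPKM stand on both sides of this stretch.

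To show the sequence upstream of a member called higher, one called lower and the most abundant member under the filter, the stretches before the 5'-most RefSeq start of S100A11, S100A13 and S100A2 are printed (RefSeq on GRCh38.p14, minus strand, written 5' to 3' along the gene, cut so that no base lies in an exon of GENCODE 29). Capitals mark GGAA, the core of the ETS binding motif, or TTCC, the same core on the other strand. The stretches lie at chr1:152037036-152037254 for S100A11, chr1:153634398-153634611 for S100A13 and chr1:153565866-153566094 for S100A2. The S100A11 and S100A2 stretches are intronic in the longer GENCODE 29 gene models, and the S100A13 stretch lies upstream of the GENCODE 29 gene, within the span of its neighbour CHTOP.
S100A11: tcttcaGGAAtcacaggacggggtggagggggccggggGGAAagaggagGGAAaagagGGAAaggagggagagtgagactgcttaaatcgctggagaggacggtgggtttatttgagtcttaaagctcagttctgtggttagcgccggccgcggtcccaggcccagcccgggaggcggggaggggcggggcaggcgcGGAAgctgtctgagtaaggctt
S100A13: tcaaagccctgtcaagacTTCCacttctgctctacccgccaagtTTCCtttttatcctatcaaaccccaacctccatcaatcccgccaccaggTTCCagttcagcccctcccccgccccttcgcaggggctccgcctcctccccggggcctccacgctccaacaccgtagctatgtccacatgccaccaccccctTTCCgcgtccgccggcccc
S100A2: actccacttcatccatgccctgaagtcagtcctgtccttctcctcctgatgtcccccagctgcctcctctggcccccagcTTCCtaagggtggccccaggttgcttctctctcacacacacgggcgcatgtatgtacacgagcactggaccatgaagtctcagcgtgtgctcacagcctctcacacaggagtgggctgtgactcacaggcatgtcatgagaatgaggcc
The S100A11 stretch of 219 bases holds 5 cores, all as GGAA, the S100A13 stretch of 214 bases holds 4, all as TTCC, and the S100A2 stretch of 229 bases holds 1. Over the full 250 bases before the start, S100A11 had 6 cores, and 9.14% of 35116 RefSeq promoter windows of that length had at least as many. S100A3 had 9 cores, a count reached by 0.655% of windows. The median window had 3. S100A10 had 1 core, S100A6 had 2, S100A4, S100A14 and S100P had 3 each, and the windows before the several starts of S100A13, S100A2 and S100A16 had 3 to 5, 1 to 3 and 2 to 3. The S100A10 window lies wholly in annotated exons and is not printed. The windows of S100A6 and S100P, and a window of S100A13 and of S100A2 other than those printed, also lie wholly in annotated exons. The core is short and 92.7% of all windows held at least 1. The longer ETS sequence CCGGAAG was in 8.52% of windows on either strand and in no window of the 10 members. A match is a description of letters and says nothing about binding.

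The expression of the family in TE5 rested on S100A11 and S100A10. Together they made up between 95.7% and 96.9% of the summed FPKM of the 10 members in each library. Ordered by the mean FPKM over the 4 libraries, S100A11 (139 FPKM) came first, above S100A10 (98.0 FPKM) in 4 of 4 libraries, and S100A13 (7.09 FPKM) came next. S100A2 (0.783 FPKM) was lower than S100A13 and higher than S100A4 (0.379 FPKM) in 4 of 4 libraries. Below that the order was not resolved. S100A4 exceeded S100P (0.322 FPKM) in 3 libraries, S100P exceeded S100A14 (0.246 FPKM) in 2, S100A14 exceeded S100A3 (0.107 FPKM) in 3, S100A3 exceeded S100A16 (0.0705 FPKM) in 2, and S100A16 exceeded S100A6 (0.0386 FPKM) in 2. The mean level of S100A11 was above 99.2% of the genes that had any value above 0, and that of S100A6 above 24.9%.

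**Figure D1:**
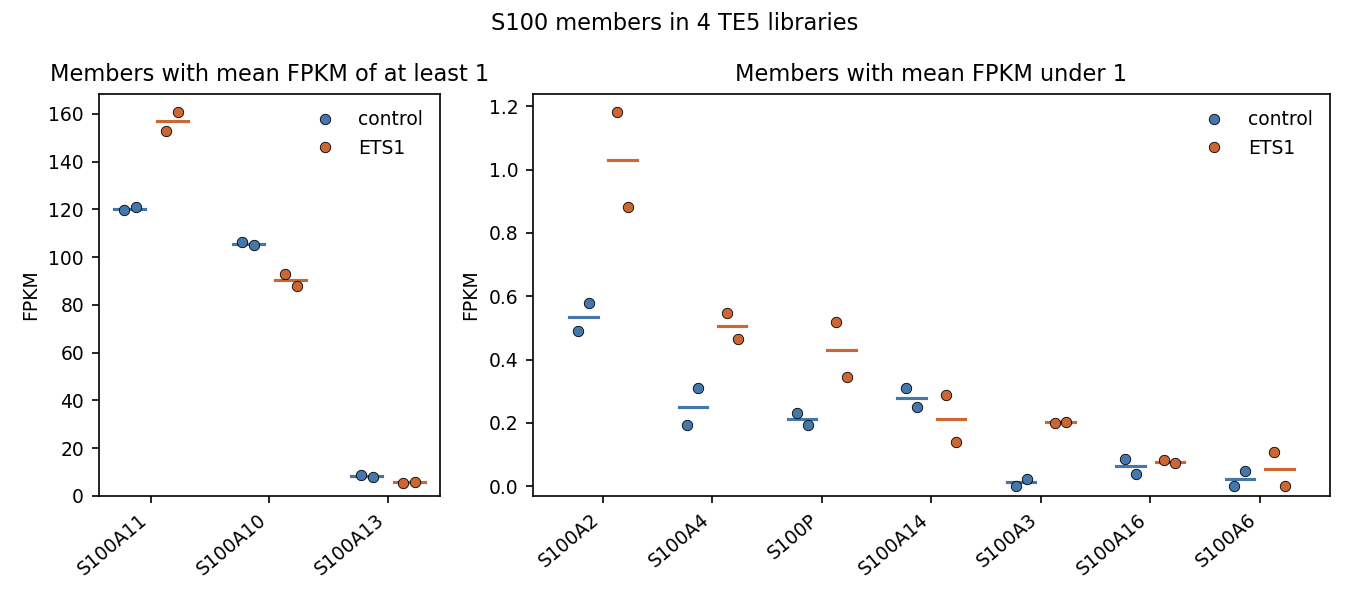
FPKM of each S100 member (vertical axes, both linear) in the 2 control (blue) and 2 ETS1 (orange) libraries, as points with the group mean as a bar, for the 3 members with a mean FPKM of at least 1 (left) and the other 7 (right). S100A11 stands higher and S100A10 and S100A13 stand lower in the ETS1 libraries, and S100A2 spans 0.490 to 1.18 FPKM on the right.

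Whether ETS1 overexpression changed these genes was tested with limma on log2(FPKM + 1) over the 14306 genes whose mean FPKM reached 1. Of the 10 members, 3 passed that filter, and all 3 were called at an adjusted p under 0.05, with S100A11 higher and S100A10 and S100A13 lower. Calls were common in this comparison, at 59.1% of tested genes (30.7% higher and 28.4% lower), so 3 of 3 called members with mixed directions does not set the family apart. Their groups also did not overlap, as for 82.0% of tested genes (43.1% higher and 38.9% lower). The median change of the 3 was -0.22 on the log2 scale, beside 0.016 over all tested genes.

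S100A11 (calgizzarin, ENSG00000163191.5, chromosome 1, 152032506 to 152047907, minus strand) binds annexin A1 and takes part in membrane repair and growth control of keratinocytes. It had 119.6 and 120.9 FPKM in the controls and 153.0 and 160.8 FPKM in the ETS1 libraries. Both ETS1 libraries stood above both controls, and the gap was larger than the spread within either group. The mean rose by 30.5%, from 120 ± 0.864 to 157 ± 5.50 FPKM (SD, n = 2 each). On the log2(FPKM + 1) scale this was 0.38 ± 0.0336 (standard error; adjusted p 0.00121, limma). This size was larger than that of 79.3% of tested genes. It moved with the scaling, to 0.58 under quantile normalization, 0.50 with a trend on gene length removed and 0.36 with trimmed-mean scaling, and was called by limma in each. About 6898 reads in the controls and 12124 in the ETS1 libraries lay behind these values. The pseudogenes S100A11P1 and S100A11P2 were listed at 0 in every library. How the authors' counting shared reads between copies of this sequence is not stated.

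S100A10 (p11, ENSG00000197747.8, chromosome 1, 151982915 to 151994390, minus strand) is the family member that does not need calcium, and it binds annexin A2 in a complex that recruits plasminogen to the cell surface. It had 106.2 and 105.2 FPKM in the controls and 92.9 and 87.7 FPKM in the ETS1 libraries. Both ETS1 libraries stood below both controls. The mean fell by 14.5%, from 106 ± 0.677 to 90.3 ± 3.65 FPKM (SD, n = 2 each), which was -0.22 ± 0.0358 in log2 (standard error; adjusted p 0.00567, limma). This size was close to the middle of all tested genes, with 55.2% of them changed less. The call was lost under quantile normalization, which left -0.076 (adjusted p 0.0972, limma). It was kept with trimmed-mean scaling at -0.25 (adjusted p 0.00461, limma) and with a trend on gene length removed at -0.12 (adjusted p 0.0276, limma). With S100A11 up and its neighbour S100A10 down, the ratio of S100A11 to S100A10 FPKM went from 1.13 and 1.15 in the controls to 1.65 and 1.83 in the ETS1 libraries, without overlap.

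S100A13 (ENSG00000189171.14, chromosome 1, 153618787 to 153631360, minus strand) takes part in the release of FGF1 and interleukin 1 alpha, proteins that leave cells without a signal peptide. It had 8.85 and 8.06 FPKM in the controls and 5.51 and 5.96 FPKM in the ETS1 libraries. The groups did not overlap. The mean fell by 32.1%, from 8.45 ± 0.558 to 5.74 ± 0.321 FPKM (SD, n = 2 each), or -0.49 ± 0.0595 in log2 (standard error; adjusted p 0.00266, limma). Of the tested genes, 88.2% changed less. S100A13 overlaps S100A1, which lies on the other strand, with 235 exon bases in common, and the use of strand in the counting is not stated, so reads of the pair cannot be told apart there. S100A1 had 0.286 and 0.328 FPKM in the controls and 0.213 and 0.274 FPKM in the ETS1 libraries, a far lower level that also did not overlap between groups. Its reads per depth, ETS1 over control, had a ratio of 0.789 with an exact 95% counting interval from 0.574 to 1.09. For S100A1 no difference was thus detectable at this depth. On its own strand S100A13 shares 536 exon bases with the transcript AL162258.1, which was not matched to a value here. Of the partners named for S100A13, FGF1 and IL1A had group means of at most 0.0413 FPKM.

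The authors' deposited table has the same directions. It gives log2 fold changes of 0.35 for S100A11 (adjusted p 1.21e-10), -0.24 for S100A10 (adjusted p 1.04e-06) and -0.56 for S100A13 (adjusted p 7.07e-08), where 51.2% of its genes with an adjusted p are called (25.3% higher and 25.9% lower). The authors' deposited table also holds S100A2, at 0.59 with a standard error of 0.425 and an adjusted p of 0.0288. S100A2 is the only member tested there that is not tested in the limma comparison, since it lay under the filter. Whether those fold changes were shrunk is not stated. A change of 0.59 with a standard error of 0.425 would not by itself give so low an adjusted p. On recovered reads, described below, limma's voom gave a log2 change of 0.92 for S100A2, so 0.59 may not be its size.

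The other 7 members had a mean FPKM under 1, so FPKM was turned back into reads for them. The products fell within 0.156 reads of a whole number for each of the 7 members in every library. Between groups, 4 of the 7 were higher in both ETS1 libraries than in both controls, 3 overlapped, and 0 were lower without overlap. Over all 10 members this made 7 without overlap, beside 55.9% of the 35055 genes with a value above 0. Among all 20749 genes with a value above 0 and a mean FPKM under 1, the groups did not overlap for 37.9%, 23.8% being higher and 14.1% lower with ETS1. Intervals below cover counting error only and are exact 95% intervals of the ratio of reads per depth, with reads summed over each group's 2 libraries.

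S100A2 (ENSG00000196754.10, chromosome 1, 153561108 to 153567890, minus strand) is a nuclear S100 protein of basal epithelial cells that binds p53. It had 0.490 and 0.579 FPKM in the controls and 1.18 and 0.881 FPKM in the ETS1 libraries, which rested on 31, 40, 106 and 78 reads in that order. The ETS1 libraries were both above the controls and differed more from each other than the controls did. Reads per depth were 1.92 times as high in the ETS1 group, with an interval from 1.46 to 2.57.

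S100A4 (metastasin, ENSG00000196154.11, chromosome 1, 153543613 to 153550136, minus strand) binds nonmuscle myosin IIA and is a common marker of mesenchymal cells. It had 0.194 and 0.310 FPKM in the controls and 0.546 and 0.467 FPKM in the ETS1 libraries, or 8, 14, 32 and 27 reads in that order. The groups did not overlap, and the ratio was 1.99 with an interval from 1.2 to 3.41. S100A3 (ENSG00000188015.9, chromosome 1, 153547329 to 153549372), best known from the hair cuticle, lies inside the S100A4 gene on the same strand with 0 exon bases shared. It was listed at 0 in control library 1, where 3 reads would have given 0.0777 FPKM, and had 0.0237 FPKM in control library 2. The ETS1 libraries had 0.201 and 0.204 FPKM. That was 0 and 1 reads against 11 and 11, a ratio of 16.3 with an interval from 2.64 to 674, so its size is hardly fixed at this depth.

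S100P (ENSG00000163993.6, chromosome 4, 6693069 to 6697170, plus strand) binds ezrin and is raised in many carcinomas. It had 0.232 and 0.194 FPKM in the controls and 0.517 and 0.345 FPKM in the ETS1 libraries, with 12, 11, 38 and 25 reads behind them in that order. The groups did not overlap, with a ratio of 2.03 and an interval from 1.24 to 3.43. It is the one member away from chromosome 1.

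In the remaining 3 members no difference was detectable at this depth. S100A14 (ENSG00000189334.8, chromosome 1, 153614255 to 153616986), an S100 protein of differentiated epithelium, had 0.311 and 0.249 FPKM in the controls and 0.287 and 0.139 FPKM in the ETS1 libraries, with a ratio of 0.767 and an interval from 0.449 to 1.31. S100A16 (ENSG00000188643.10, chromosome 1, 153606886 to 153613145), a widely expressed member, had 0.0873 and 0.0399 FPKM in the controls and 0.0820 and 0.0727 FPKM in the ETS1 libraries, with a ratio of 1.24 and an interval from 0.507 to 3.21. The ETS1 values of S100A16 lay inside the range of its controls, and those of S100A14 overlapped its controls.

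S100A6 (calcyclin, ENSG00000197956.9, chromosome 1, 153534599 to 153536244, minus strand) is usually abundant in proliferating epithelial and mesenchymal cells. Here it had the lowest mean of the 10 members, though it was above S100A16 in 2 of 4 libraries. It was listed at 0 in control library 1 and in ETS1 library 2, where 3 reads would have given 0.0764 and 0.0546 FPKM, and it had 0.0467 FPKM (2 reads) in control library 2 and 0.108 FPKM (6 reads) in ETS1 library 1. The groups overlapped, and the interval of the ratio ran from 0.398 to 22.6. ACTB, GAPDH, EEF1A1, RPLP0 and TUBA1B had at least 35.5 FPKM in each library. FPKM is already corrected for depth, so these values do not show that depth sufficed for S100A6. The window before the S100A6 start had 24 CG pairs in 250 bases, as many as that of S100A10, the member with 98.0 FPKM, and more than the median window, with 11. Both the S100A6 and the S100A10 window lie wholly in annotated exons.

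**Figure D2:**
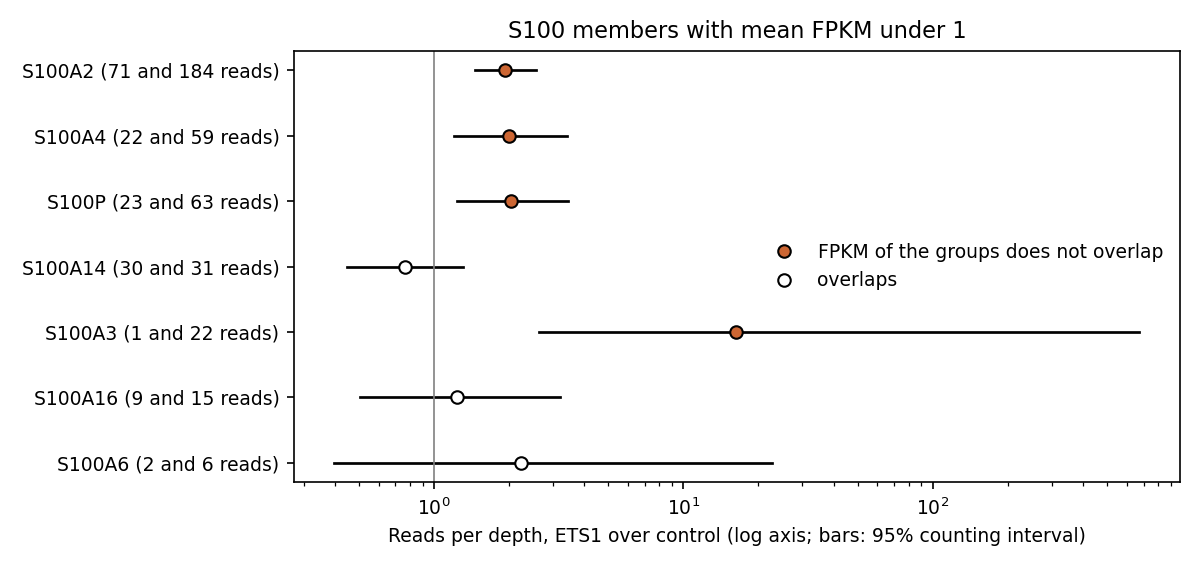
Ratio of reads per depth, ETS1 over control (horizontal log axis), for the 7 members with a mean FPKM under 1, with reads of the control and ETS1 groups in parentheses and exact 95% counting intervals as bars. Filled points are members whose FPKM does not overlap between groups, and the interval of S100A3 reaches from 2.64 to 674.

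On the recovered reads, an alternative chosen after seeing the data, limma's voom tested 9 of the 10 members, all but S100A6, which had under 10 reads in all. It called 5 members, in a test that called 48.2% of 21473 genes (26.4% higher and 21.8% lower). S100A11, S100A10 and S100A13 were called as before, and S100A2 (adjusted p 0.0126) and S100A3 (adjusted p 0.00764) were called higher. S100A3, with 1 control read, passed the minimum of 10 reads only through the ETS1 libraries, so its call is no independent support for a difference. S100A4 (adjusted p 0.0709), S100P (0.0798), S100A14 (0.448) and S100A16 (0.701) were not called by limma's voom. When limma was run on log2(FPKM + 1) with no filter, which called 19.6% of 35055 genes (10.3% higher and 9.24% lower), S100A3 passed (adjusted p 0.0127) and S100A2 did not (adjusted p 0.0851). For a single member, the 4 values have only 6 arrangements, so an exact permutation test (two-sided) gives at least 0.33 and cannot reach the threshold.

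The rest of the family was low. Of 11 other S100 genes, 3 (S100A7L2, S100A12 and S100G) were listed at 0 in every library, 7 had at most 11 reads in each library, and S100A1 was the highest, at 0.307 FPKM in the controls. S100Z and S100B, both among the 7, were named after their values were seen. S100Z had 1 read in the control group and 17 in the ETS1 group without overlap, a ratio of 12.6 with an interval from 1.98 to 527. It too passed the minimum of 10 reads only through the ETS1 libraries, where limma's voom gave an adjusted p of 0.0225, and limma with no filter gave 0.106. S100B had 1 and 10 reads in that order, also without overlap, with an interval from 1.06 to 322 (limma's voom adjusted p 0.145). S100A7 was higher and S100A1 lower without overlap. Among all genes with a value above 0 and a mean FPKM under 1, 37.9% did not overlap (23.8% higher and 14.1% lower). The inflammatory pair S100A8 and S100A9 and the psoriasin gene S100A7 were listed at 0 in both controls, with 1, 1 and 4 reads in the ETS1 group. The 11 genes summed to between 0.349 and 0.356 FPKM in the controls and between 0.500 and 0.560 FPKM in the ETS1 libraries. Of 7 genes that encode proteins with an S100 domain fused to a longer chain, FLG2, TCHHL1 and RPTN were listed at 0 throughout.

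Known partners, targets and receptors of S100 proteins were compared next, from a list of 21 genes. Of these, 17 were tested, 8 rose, 6 fell and 3 did not pass, with a median log2 change of 0.15 beside 0.016 over all tested genes, of which 59.1% were called (30.7% higher and 28.4% lower). AHNAK, a giant scaffold protein held by the S100A10 and annexin A2 complex, went from 2.88 ± 0.0376 to 4.73 ± 0.0317 FPKM (SD, n = 2 each), which was 0.56 in log2 (adjusted p 0.000778, limma). S100PBP, named for its binding of S100P, rose by 0.32 on the log2 scale, SYT1, a partner of S100A13 in the release complex, by 0.30 and MDM2 by 0.26. The annexins were chosen after their values were seen, since the list holds 3 of them. ANXA2 fell with S100A10, from a mean of 18.1 FPKM in the controls to 16.2 and 15.9 FPKM in the ETS1 libraries (log2 change -0.16, limma adjusted p 0.00774). ANXA1, the partner of S100A11, rose from 3.68 ± 0.0413 to 4.20 ± 0.0308 FPKM (SD, n = 2 each, log2 change 0.15, limma adjusted p 0.0254). ANXA11 went from 15.3 ± 0.630 to 15.2 ± 0.0847 FPKM and was not called (SD, n = 2 each, log2 change -0.0088, limma adjusted p 0.856). MYH9, which encodes the myosin heavy chain bound by S100A4, rose by 0.21 and CACYBP, named for its binding of S100A6, fell by 0.24 on the log2 scale, and both were also chosen after their values were seen. Of the receptor genes, AGER and BSG also being chosen after their values were seen, TLR4 was listed at 0 in every library and AGER went from 4.54 ± 0.109 to 3.94 ± 0.0195 FPKM (SD, n = 2 each, log2 change -0.17, limma adjusted p 0.0198). BSG, the most abundant of the 3, fell from 165 ± 2.90 to 150 ± 4.59 FPKM (SD, n = 2 each, log2 change -0.14, limma adjusted p 0.0189).

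Among 20 other genes of EF-hand calcium-binding proteins, 17 were tested, 2 rose, 5 fell and 10 did not pass, beside 59.1% called over all tested genes. The median log2 change of the 17 was -0.043. CHP1, a regulator of sodium-proton exchange, fell by 0.40 on the log2 scale, HPCAL1, a neuronal calcium sensor, by 0.35 and SRI, which encodes sorcin, by 0.33. CALU, a calcium-binding protein of the secretory pathway, rose by 0.34. Summed over the 20 genes, FPKM ran from 519 to 530 in the controls and from 534 to 535 in the ETS1 libraries.

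**Figure D3:**
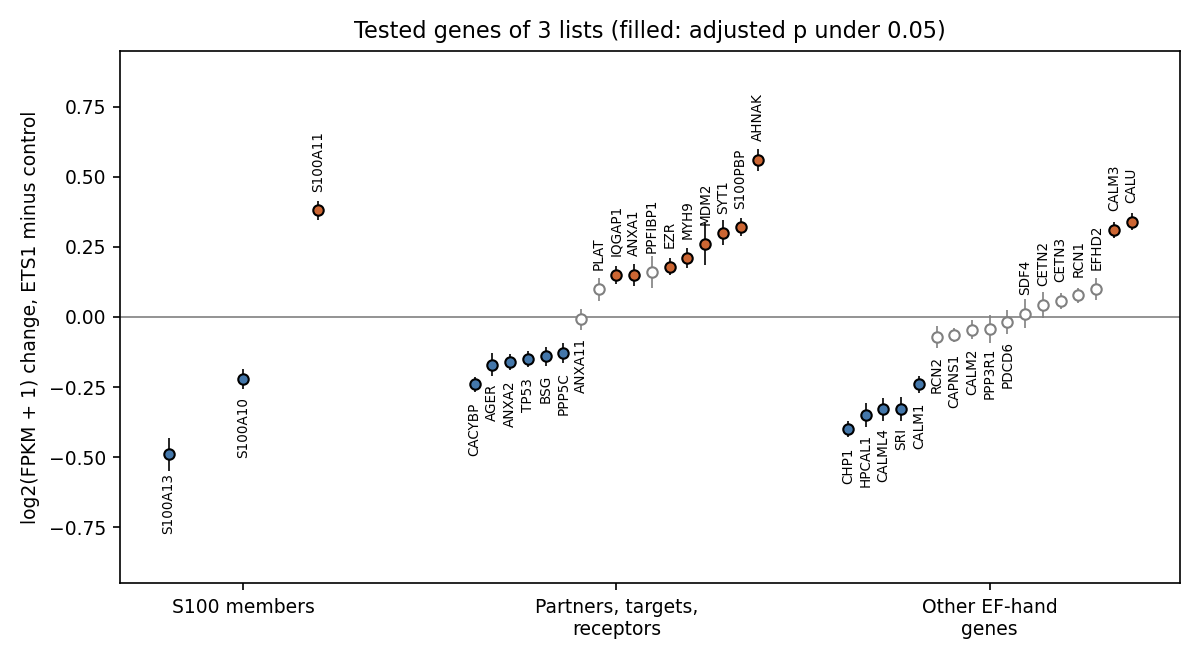
Change on the log2(FPKM + 1) scale (vertical axis, ETS1 minus control, bars are standard errors) of each tested gene among the S100 members, their partners, targets and receptors, and other EF-hand genes. Filled points were called at an adjusted p under 0.05 (orange higher, blue lower), and AHNAK at 0.56 is the highest of the 3 lists.

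The members' neighbours on chromosome 1 moved in both directions as well. Of 44 other tested genes within 1 Mb of a member, 17 rose, 17 fell and 10 did not pass, with a median of 0.029. Over all tested genes 59.1% were called, 30.7% higher and 28.4% lower. SELENBP1 (0.92), INTS3 (0.56), SEMA6C (0.52) and LYSMD1 (0.52) were the neighbours with the largest log2 changes, all higher. Positions were matched by name for 84.0% of tested genes, and none of these stood between S100A11 and S100A13. Within 5 Mb, the median change of between 141 and 146 tested neighbours was 0.0069 for S100A11, 0.0021 for S100A10 and 0.0043 for S100A13. Subtracting that local median from each library left 0.37, -0.23 and -0.49 in that order, all 3 still called by limma.

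**Figure D4:**
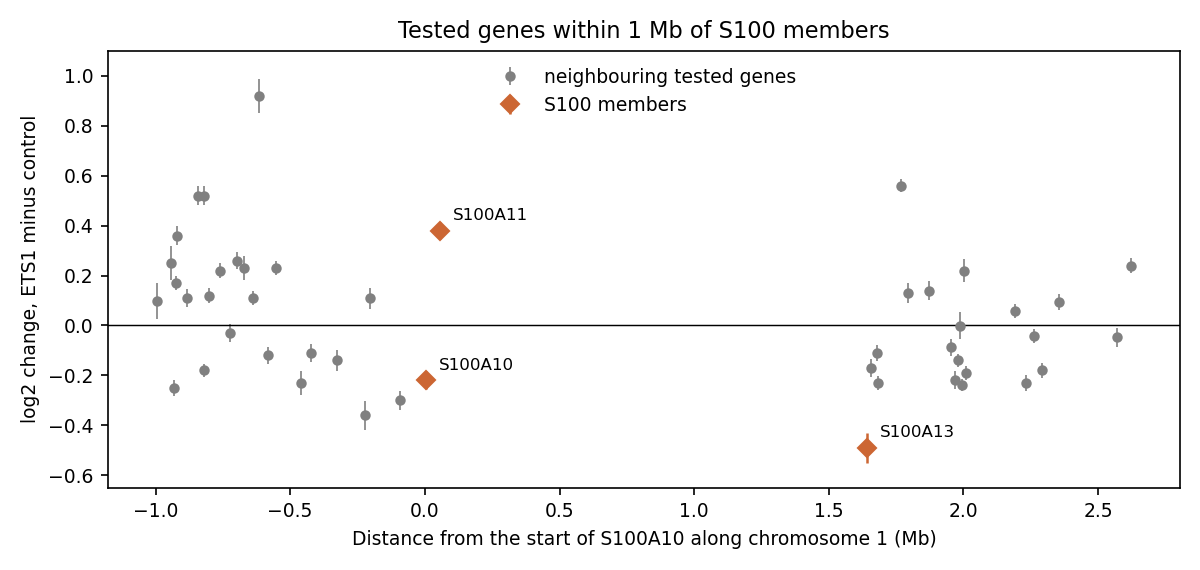
Log2 change (vertical axis, ETS1 minus control, bars are standard errors) of tested genes within 1 Mb of a chromosome 1 member against their distance from the start of S100A10 in Mb. S100A11 at 0.38 and S100A10 at -0.22 stand side by side, S100A13 at -0.49 stands beyond a stretch with no tested gene of matched position, and grey neighbours lie on both sides of 0.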

How the data were processed

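RNA of 4 TE5 libraries was measured by bulk RNA-seq. The authors deposited FPKM per gene name, per the file headers and labels, and a comparison table whose mean normalized count is a signal averaged over the libraries, with log2 fold changes, their standard errors, p-values and adjusted p-values, per the file headers. The submitters' processing notes name HISAT2, HTSeq, DESeq2, hg38 and GRCh38. Roles, versions, annotation and use of strand are not given in the sources used here.

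Limma 3.58.1 in R 4.3.3 was fitted to log2(FPKM + 1) for the 14306 genes whose mean FPKM reached 1 (25.7% of those listed), with a group term, an intensity trend, 2 residual and 2.84 prior degrees of freedom, two-sided tests and Benjamini-Hochberg adjustment over all genes tested (threshold 0.05). No raw counts were used, so no count model was the main test. Fold changes on this scale understate those of low genes. Reads were recovered as FPKM times gene length divided by the value of 1 read, with lengths from the authors' mean count or from GENCODE 29. Over 2885 low-count genes of the authors' comparison, 94.8% of values came within 0.1 of a whole number (20% by chance), and for other low genes, with GENCODE 29 lengths, 81.6% did. The libraries of a group were not copies of one another (chi-square of 3.95 per gene on average, where counting error alone gives about 1). On simulated data of 14278 tested genes, 86 of them were changed 1.5-fold and 76 were changed 2-fold. Of these, 87.2% and 96.1% were recovered, and 11.4% of calls were unchanged genes, above the nominal rate. Far fewer genes changed there than the 59.1% called in the data. The share of unchanged genes among calls depends on how many genes change, so these rates need not hold for the data.

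The members, the gene lists and the alternatives were chosen with earlier results of these data known. Named are all members, ETS1, listed marker genes at 0 and, per list, at most 4 called genes with the largest changes; genes named beyond this rule were chosen after their values were seen, as the text says of them, apart from genes given only as checks or for their level. Alternatives were another pseudocount, other filters, scalings and priors, a replicate block, a stricter threshold, the authors' values, removal of a length trend or local median, leaving out each library and, added later, voom on recovered reads.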

Additional observations from a re-analysis of the deposited data

How the results depend on the processing

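S100A11, S100A10 and S100A13 kept their direction under every alternative run, and S100A11 and S100A13 kept their call in each. S100A10 lost it under quantile normalization, so 1 member was called lower there, and the cause was not tested. The number of members called higher was 2 of 10 tested with no filter (10.3% of all genes there), 2 of 4 with the authors' deposited values (25.3%) and 3 of 9, with 5 called in all, with voom on recovered reads (26.4%), chosen after seeing the data. Leaving out each library in turn left 1 library in a group, assumed to vary like the other group. With that assumption 3 members were called each time, with changes from 0.35 to 0.42 for S100A11, -0.27 to -0.18 for S100A10 and -0.55 to -0.43 for S100A13. Over all genes, calls numbered 5562 (2562 higher) of 8215 tested with the filter raised to 5 FPKM, and 5386 (2667 higher) at an adjusted p under 0.01. Without a library they ran from 5790 to 7680, with 2845 to 3962 higher, the lowest without ETS1 replicate 2. With the replicate number as a block, 3 members and 7283 genes were called. Same-numbered libraries did not deviate together (correlation -0.0456 across genes), so the numbers do not show a pairing. Depth limits the 7 members under 1 FPKM, whose changes rest on at most 106 reads per library.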
